A study of Mus musculus with 6 samples.

Results

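The 7 genes studied here, whose level swung widely from mouse to mouse in the whole blood of outbred mice, were Pcp4l1, Rhoj, Gm1966, Apol11b, Npy, Dnah8 and Fn3krp. They were chosen by their range, the distance between the lowest and the highest of the 6 arrays, which had to exceed 2 log2 units (a 4-fold difference), and the range is therefore given as a description only. Each of the 7 has a single probe set of its own, and 53 of the 22180 genes with a probe set of their own passed that range. Blood was taken from 3 mice kept in the enriched environment (EE) and 3 kept in the standard environment (SE), and the RNA of each mouse was hybridized to its own Affymetrix whole-transcript array. All 6 were male CD1 mice, labelled as 9 weeks old, and neither group received an inflammatory insult. EE mice spent 2 weeks in a larger enclosure with a wheel, a nest house and a tunnel, whereas SE mice spent the same time in an ordinary cage. CD1 is an outbred stock, so the mice of a group are not genetically alike, and the sources used here do not say which of them shared an enclosure. The values are log2 intensities after robust multiarray averaging (RMA), which brings the arrays to a common distribution and yields 1 value per probe set and mouse.

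The genes belong to unrelated families. Npy encodes neuropeptide Y, a transmitter of sympathetic nerves and the brain that has also been found in megakaryocytes of rats and of some mouse strains. Pcp4l1 encodes a small relative of PCP4, a calmodulin-binding protein of neurons. Rhoj encodes a small GTPase close to CDC42 that is best known from endothelial cells, where it shapes the actin skeleton. Gm1966 is a predicted gene in a cluster of very large interferon-inducible GTPase genes. Apol11b belongs to the apolipoprotein L family, which has expanded in the mouse. Dnah8 encodes a heavy chain of axonemal dynein, the motor of cilia and sperm tails. Fn3krp encodes a kinase that removes certain sugars bound to proteins, next to its paralogue Fn3k.

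The start regions of 5 members are given here, because the 3 genes with values on 2 levels (Npy, Pcp4l1 and Gm1966) are compared with the graded Apol11b, and because Dnah8 shares its start with a neighbour described later. All are RefSeq sequences of the GRCm38.p6 build, 5′ to 3′ on the strand of the gene, from 200 bases before to 20 bases from the annotated start on. Capitals mark matches on either strand to any of 4 short motifs that were searched. One is the core of the TATA box, TATAAA, from which many regulated genes are started. Another is the CCAAT box, spelled as its name says, and a further one is the GC box, GGGCGG, which is bound by factors of the SP family. The last is the core of the interferon response element, in which GAAA stands on both sides of any 2 bases.
Npy, chr6:49822510-49822729, plus strand: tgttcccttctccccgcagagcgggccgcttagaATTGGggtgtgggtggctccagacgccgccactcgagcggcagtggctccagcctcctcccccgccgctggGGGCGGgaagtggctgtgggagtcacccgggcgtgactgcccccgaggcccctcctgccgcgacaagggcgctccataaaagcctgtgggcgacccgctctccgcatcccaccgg
Pcp4l1, chr1:171196249-171196468, minus strand: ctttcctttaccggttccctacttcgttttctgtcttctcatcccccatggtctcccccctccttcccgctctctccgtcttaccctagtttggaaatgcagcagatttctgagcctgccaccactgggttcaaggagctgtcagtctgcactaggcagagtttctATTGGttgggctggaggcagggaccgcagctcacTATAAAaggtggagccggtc
Gm1966, chr7:106644626-106644845, minus strand: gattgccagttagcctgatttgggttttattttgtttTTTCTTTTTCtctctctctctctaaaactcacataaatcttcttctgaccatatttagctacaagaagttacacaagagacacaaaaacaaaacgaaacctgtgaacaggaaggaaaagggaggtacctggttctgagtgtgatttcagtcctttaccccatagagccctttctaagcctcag
Apol11b, chr15:77643267-77643486, minus strand: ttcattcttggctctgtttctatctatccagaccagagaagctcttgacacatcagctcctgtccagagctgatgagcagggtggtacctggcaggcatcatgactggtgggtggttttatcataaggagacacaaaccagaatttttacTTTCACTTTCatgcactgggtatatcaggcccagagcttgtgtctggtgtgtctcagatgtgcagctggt
Dnah8, chr17:30626736-30626955, plus strand: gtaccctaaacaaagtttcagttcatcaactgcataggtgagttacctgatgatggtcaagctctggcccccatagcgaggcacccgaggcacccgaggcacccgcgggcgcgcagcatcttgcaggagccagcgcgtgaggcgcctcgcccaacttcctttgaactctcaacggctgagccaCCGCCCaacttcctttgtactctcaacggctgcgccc
RefSeq start regions were at hand for all 7 members, each 300 bases long. TATAAA was found in Pcp4l1 alone, beginning at its annotated first base, and in 13.6% of all 32851 start regions of that length. The interferon response element core was found in Gm1966 and Apol11b, against 3.44% of all start regions, and in Gm1966 it lay inside a run of T and C. CCAAT was present in Npy, Pcp4l1 and Fn3krp (37.4% of all) and GGGCGG in Npy, Dnah8 and Fn3krp (35.7% of all). Rhoj had none of the 4. The Npy region held 24 CpG dinucleotides and that of Apol11b 0, against a median of 7 over all start regions. A match is a stretch of letters and not a measured binding site.

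The arrays were alike in their medians, which lay between 5.03 and 5.11. Over 8892 probe sets with a mean of at least 100 on the linear scale, EE mouse 3 correlated least with the other arrays (mean r = 0.920 across probe sets, against 0.950 to 0.957 for the other 5). Values without this mouse are given beside many results of the 7 genes, but not beside every correlation. As for the tissue, 9 of 9 measured B cell markers, 9 of 9 T cell markers and 10 of 10 platelet markers had a mean of at least 100 on the linear scale, as did 4 of 5 red cell markers and 8 of 14 neutrophil markers. The same held for 0 of 7 markers of ciliated cells and 0 of 8 of neurons and chromaffin cells.

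Npy was high in 1 mouse of 6. Its value was 9.76 in SE mouse 1, 6.26 in SE mouse 2 and 6.12 in SE mouse 3, whereas EE mice 1, 2 and 3 had 6.00, 6.21 and 6.31. The 5 low mice thus lay within 0.31 log2 units of each other, and SE mouse 1 stood 3.45 log2 units above the highest of them. The range of 3.76 log2 units, a 13.6-fold difference, fell to 0.31 without SE mouse 1. Its overall mean, 110 as a linear intensity, was just over the minimum of 100 that the study set, while each of the 5 low mice lay under the 6.64 log2 units to which that minimum corresponds.
Pcp4l1 was high in 4 mice and low in 2. SE mice 1, 2 and 3 lay at 9.52, 6.20 and 6.09, and EE mice 1, 2 and 3 at 9.12, 10.01 and 9.30. Every EE mouse was in the high set, together with SE mouse 1, and no mouse lay between 6.20 and 9.12. The range was 3.92 log2 units, or 15.1-fold.
Gm1966 was also high in 4 mice and low in 2, but in a different combination. The SE mice, 1 to 3, had 9.15, 9.96 and 5.96, and the EE mice, 1 to 3, had 6.28, 9.54 and 9.31. Each housing group thus held 1 low and 2 high mice, and the empty stretch ran from 6.28 to 9.15. The range of 4.0 log2 units, 16.0-fold, was the widest of the 7.
In these 3 genes, the largest gap between neighbouring mice took up 91.7% (Npy), 74.6% (Pcp4l1) and 71.7% (Gm1966) of the range. The median over all probe sets of 1 gene was 44.3%, and 12 of the 59 such probe sets with a range over 2 log2 units had a gap over 70%.

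**Figure D1:**
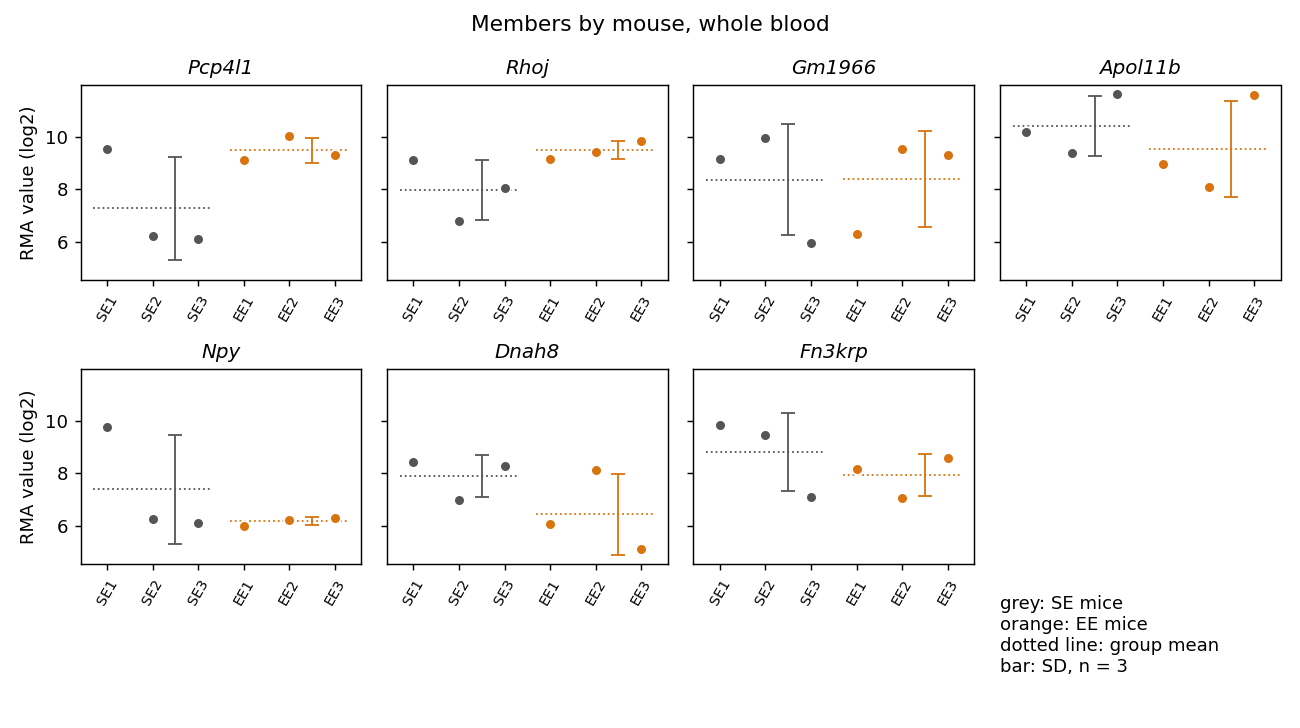
RMA value (log2, y axis) of the 7 genes in each mouse (x axis), with SE mice in grey and EE mice in orange. Dotted lines are group means and bars the SD of 3 mice. Npy stands out in SE mouse 1 alone (9.76), whereas Gm1966 has a low mouse in both groups (5.96 and 6.28).

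With so few mice, a graded gene cannot be told from a switched one with certainty. The other 4 genes looked graded rather than switched, and their largest gap took up 35.0% to 40.4% of the range. For them the values do not bear out an on-off pattern, and they are described as genes of wide range. A low value is not evidence of an absent transcript for any of the 7, since RMA values carry no detection call.
Rhoj was measured at 9.10, 6.80 and 8.03 in SE mice 1 to 3, whereas EE mice 1 to 3 had 9.16, 9.43 and 9.84. Every EE mouse was above every SE mouse, although EE mouse 1 and SE mouse 1 differed by little. The range was 3.04 log2 units (8.22-fold), 2.62 without EE mouse 3 and 1.81 without SE mouse 2, which was the lowest.
Apol11b was measured at 10.19, 9.38 and 11.63 in SE mice 1 to 3, whereas EE mice 1 to 3 had 8.97, 8.07 and 11.58. The highest pair, SE mouse 3 and EE mouse 3, came from different groups. Its range was 3.57 log2 units, or 11.8-fold, and 2.67 without EE mouse 2.
Dnah8 lay at 8.42, 6.97 and 8.27 in the SE mice and at 6.05, 8.12 and 5.11 in the EE mice. SE mice 1 and 3 and EE mouse 2 were close together at the top, and the other 3 were spread out below. The range of 3.31 log2 units (9.93-fold) was 2.37 without EE mouse 3, the lowest.
Fn3krp lay at 9.84, 9.45 and 7.09 in the SE mice and at 8.14, 7.06 and 8.58 in the EE mice. The lowest pair, SE mouse 3 and EE mouse 2, again came from different groups. Its range was 2.78 log2 units, or 6.85-fold, the narrowest of the 7.

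**Figure D2:**
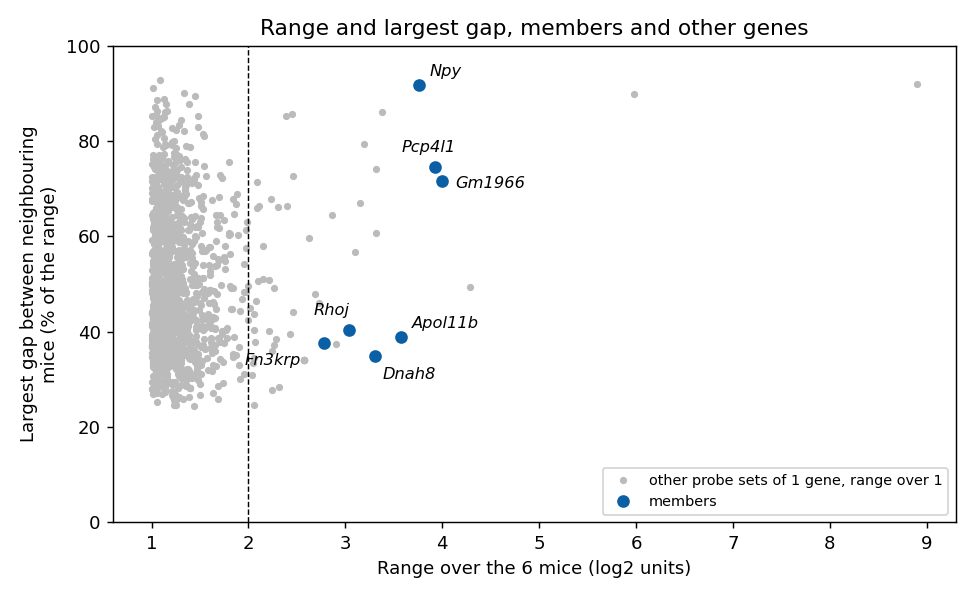
Range over the 6 mice in log2 units (x axis) against the largest gap between neighbouring mice as a percentage of that range (y axis), for the 7 genes in blue and all other probe sets of 1 gene with a range over 1 in grey. The dashed line marks a range of 2. Npy, Pcp4l1 and Gm1966 lie at gaps of 71.7% to 91.7%, and the other 4 at 35.0% to 40.4%.

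The 7 genes are well inside the limit by which they were picked. Of the 23521 probe sets of 1 gene, 59 had a range over 2 log2 units (0.251%), and the median range was 0.47. Just inside the limit lay Layn, Mir181b-1 and Snrnp25, with ranges of 2.02, 2.04 and 2.05, and just outside it Sp100, Oasl2 and Iglv1, with 2.00 (under 2 before rounding), 1.99 and 1.98. Hbq1a, Gdpd3 and Ttc9 were not among the picked genes and had wider ranges than any of them (8.90, 5.98 and 4.29).

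The comparison of EE with SE mice asks whether housing goes along with the level of these genes, a question that the range over all 6 mice did not use. Of the 7, 3 had a higher mean in EE and 4 in SE. Rhoj and Pcp4l1 passed the thresholds of the study, an unadjusted p under 0.05 from limma and a fold above 2 or under 0.5, against 0.172% of all 41345 probe sets in either direction and 0.0701% higher in EE, where both of these were higher. Since the genes were picked for wide values, a difference over 2-fold is easier to reach for them than for others.
Rhoj was higher in EE, at 9.48 ± 0.34 (SD, n = 3) against 7.98 ± 1.15 (SD, n = 3). The log2 fold change was 1.5 (standard error 0.53, limma unadjusted p = 0.0244, adjusted p = 1.00 over all probe sets), and an exact two-sided permutation test over the mice gave p = 0.1, the smallest that 3 against 3 allows.
Pcp4l1, which the study also drew in its heatmap of these arrays, differed by 2.21 log2 units between EE (9.48 ± 0.47, SD, n = 3) and SE (7.27 ± 1.95, SD, n = 3), with EE higher (standard error 0.87, limma unadjusted p = 0.039, adjusted p = 1.00). Because SE mouse 1 lay among the EE mice, the exact two-sided permutation test gave p = 0.3.
The remaining 5 did not pass the thresholds. The log2 fold change of Dnah8 was -1.46 (standard error 0.76, limma unadjusted p = 0.0954, exact permutation p = 0.2), that of Npy -1.21 (standard error 0.90) and that of Fn3krp -0.87 (standard error 0.73). For Apol11b it was -0.86 (standard error 0.94) and for Gm1966 0.02 (standard error 1.21). Their unadjusted p from limma ran from 0.0954 to 0.986. The difference in Npy rested on SE mouse 1, without which it was -0.02 (standard error 0.15), and that of Dnah8 was -0.80 (standard error 0.70) without EE mouse 3. For Apol11b it shrank to -0.13 without EE mouse 2 and to -0.25 without SE mouse 3, and for Fn3krp it shrank to -0.34, -0.54 or -0.43 when SE mouse 1, SE mouse 2 or EE mouse 2 was left out. No EE value overlapped an SE value for 1 gene of 7, Rhoj, against 8.37% of all probe sets.
Single mice decided the calls. Both genes passed without SE mouse 1, where Pcp4l1 no longer overlapped between the groups (log2 fold change 3.33). Without SE mouse 2, neither gene passed (log2 fold change 0.91 for Rhoj and 1.67 for Pcp4l1), and without SE mouse 3, EE mouse 2 or EE mouse 3 neither Rhoj nor Pcp4l1 did (limma unadjusted p of 0.0502 to 0.126). Without EE mouse 1, Pcp4l1 missed the p threshold. With 1 mouse left out, other genes passed instead: Fn3krp without SE mouse 3 (log2 fold change -1.71), Dnah8 without EE mouse 2 (-2.31) and Apol11b without EE mouse 3 (-1.89).

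The spread within each housing group was wide as well. In SE, 6 of the 7 genes had a range over 2 log2 units among 3 mice, and in EE 3 did, with Gm1966 and Apol11b in both. The SD was larger in SE for 5 genes and larger in EE for 2, Dnah8 (1.54 against 0.80) and Apol11b (1.82 against 1.14), and the EE SD divided by the SE SD had a median of 0.528. The ratio was lowest for Npy, at 0.0778, where the high mouse was an SE mouse. Such ratios are not given here over all probe sets, so those of the 7 genes do not tell which group varied more. Extremes were shared out over the mice: SE mouse 1 was highest for 3 genes (Npy, Dnah8 and Fn3krp) and lowest for 0, whereas SE mouse 3 and EE mouse 2 were each lowest for 2 and highest for 1. EE mouse 3, the array least like the others, was highest for 1 gene and lowest for 1.

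Dnah8 did not vary alone. On chromosome 17 it lies in a stretch with Btbd9, Glo1 and 1700097N02Rik, and in these 4 the same 3 mice, SE mice 1 and 3 and EE mouse 2, had the highest values. Glo1 encodes glyoxalase 1, which detoxifies methylglyoxal, a by-product of glycolysis. It lay at 7.96, 6.90 and 7.71 in SE mice 1 to 3, whereas EE mice 1 to 3 had 6.33, 7.60 and 6.42, a range of 1.63 log2 units. The lncRNA 1700097N02Rik lay at 8.52, 7.12 and 8.03 in the SE mice and at 7.16, 8.40 and 7.27 in the EE mice, so that 0.76 log2 units or more parted the 3 high mice from the rest. Btbd9, a BTB domain gene, lay at 7.22, 6.83 and 7.23 in the SE mice and at 6.73, 7.07 and 6.29 in the EE mice, with a range of 0.93 that fell to 0.50 without EE mouse 3.
Over the 6 mice the Pearson correlation with Dnah8 was 0.98 for Btbd9, 0.96 for Glo1 and 0.84 for 1700097N02Rik. Without EE mouse 3 it was 0.97, 1.00 to 2 decimals and 0.91. The genes share the same 6 arrays, and these coefficients are descriptions without a p. Glo1 was among the 3 genes most like Dnah8 of 1357 with a range of at least 1 log2 unit, whereas Btbd9 was picked out once its values were known.
The stretch from the start of Btbd9 (chr17:30215524-30582621) to the end of Dnah8 (chr17:30626935-30875762) covers 660 kb in GRCm38.p6, with Glo1 at chr17:30592861-30612659 and 1700097N02Rik at chr17:30622441-30626905. The annotated starts of 1700097N02Rik and Dnah8 are 29 bases apart on opposite strands, and their 300-base start regions share 130 bases. Gm6402, a pseudogene that lies within Btbd9, did not share the pattern, with a range of 0.26 and an r of 0.57. Among the 12 other measured genes within 500 kb of Dnah8, this one included, the ranges over all 6 mice were 0.21 to 0.73. The range of Btbd9 without EE mouse 3, 0.50, lies inside these, but theirs were not set out without that mouse. Of the 12, 1, Abcg1, had the same 3 mice on top, as did 3.13% of all probe sets of 1 gene. Between EE and SE mice, none of the 4 passed an unadjusted p under 0.05 from limma (0.0954 to 0.542), with log2 fold changes of -0.39 (standard error 0.22) for Btbd9, -0.74 (standard error 0.40) for Glo1 and -0.28 (standard error 0.44) for 1700097N02Rik. As background, a duplication that takes in Glo1 and flanking sequence is known from some laboratory strains. Whether it differs between these mice was not tested, as DNA copy number was not analysed here.

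Neighbours of the other 6 genes had ranges of up to 1.07 among the nearest. Of the 6 annotated genes nearest to each, between 1 and 5 had a probe set of their own. Next to Pcp4l1 (chr1:171173264-171196268), 4 measured genes had ranges of 0.30 to 0.50, and Sdhc, a subunit of succinate dehydrogenase, lay between 6.48 and 6.96. Around Rhoj (chr12:75308313-75401455) 3 genes had ranges of 0.56 to 0.73, and around Fn3krp (chr11:121421373-121431288) 5 genes had ranges of 0.27 to 0.67. Fn3k, the paralogue that follows Fn3krp, lay between 5.24 and 5.80 and had an r of 0.62 with it. Beside Gm1966 (chr7:106595549-106644646), Gm8995 had a range of 0.75 and ran the other way (r = -0.48 over 6 mice). Beside Apol11b (chr15:77633951-77643286), Apol7e had a range of 1.07 and an r of -0.03, and near Npy (chr6:49822710-49829507) the single measured gene, Mpp6, had a range of 0.96 and an r of 0.15. Within 500 kb, genes with an r over 0.8 and a range over 0.9 numbered 3 for Dnah8. There was 1 each for Gm1966 (Olfr698) and Apol11b (Apol10a), and 0 for the other 4. These limits were set after the values were seen, and Narf, 165.5 kb from Fn3krp, fell just short of them (r = 0.79, range 1.05). Some neighbours of narrow range also had a high r, such as Apoa2 next to Pcp4l1 (r = 0.89, range 0.30) and 1700025B11Rik near Apol11b (r = 0.92, range 0.40).

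Among the 7 genes themselves, 1 of 21 pairs followed the same mice. Pcp4l1 and Rhoj had an r of 0.89 over 6 mice and 0.90 without EE mouse 3, and in both SE mice 2 and 3 were the lowest. The next highest r was 0.64 (Npy and Fn3krp, both highest in SE mouse 1) and the lowest -0.37 (Pcp4l1 and Apol11b). They lie on 7 different chromosomes.
The genes most like each member were sought among 1357 others with a range of at least 1 log2 unit, and with so many candidates and 6 arrays high coefficients are easily found. Npy was followed by Ranbp17 (r = 0.99), Syne1 (0.99) and Gm17783 (0.98), all of them highest in SE mouse 1 with ranges of 1.06 to 1.08. Fn3krp was followed by Pck2 (0.97), the mitochondrial form of phosphoenolpyruvate carboxykinase, Adgre4 (0.96), an adhesion receptor of myeloid cells, and Cox6b2 (0.96). For Apol11b these were Dusp8 (0.97), Pnpla1 (0.94) and Gm4701 (0.89), and for Gm1966 Siglece (0.94), an inhibitory lectin of myeloid cells, Rab27b (0.89) and Cd300c2 (0.88).
For Pcp4l1 the list was Gm5150 (0.92), Rmi1 (0.91) and S100a9 (0.91), and for Rhoj Slfn4 (0.94), H2bc18 (0.93) and Tpm3 (0.89). Dnah8 was followed by the immunoglobulin segment Igkv9-124 (0.97), Glo1 (0.96) and Rragd (0.92). S100a9, which encodes a calcium-binding protein of neutrophils, lay at 6.74, 6.04 and 5.88 in the SE mice and at 7.39, 7.20 and 7.18 in the EE mice.

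Relatives of the 7 genes had ranges of up to 1.94. Of 86 measured genes in 7 family and pathway lists, 2 were higher and 1 was lower in EE at an unadjusted p under 0.05 from limma, against 3.74% of all probe sets, and no adjusted p was under 0.05. The median log2 fold change of the lists ran from -0.10 to 0.07, beside -0.01 over all probe sets. A range over 1 log2 unit was found for 15 of the 86, against 5.77% of all probe sets of 1 gene.
Of 9 measured calmodulin genes and regulators, the widest was Nrgn, which encodes the calmodulin-binding neurogranin, with 11.27 to 12.30.
Of 15 measured genes in the list of interferon-inducible GTPases, 8 had a range over 1 log2 unit, the most of any list. It includes Gm4759, annotated as a transcribed pseudogene, and Gm8995, annotated as a miscellaneous RNA. Gbp8 lay between 4.59 and 6.53. Irgm1, which acts in autophagy and defence against microbes, was higher in EE (log2 fold change 0.60, standard error 0.18, limma unadjusted p = 0.0139). The correlation of the 15 genes with Gm1966 over the 6 mice went both ways, from -0.59 for Gbp8 to 0.77 for Gbp6, an interferon-inducible guanylate-binding protein gene with a range of 0.45. Genes of the cluster that holds Gm1966 and of the apolipoprotein L family are close copies, and whether a probe of one binds transcripts of another was not tested.
All 12 genes of the apolipoprotein L list, Apold1 included, were measured. The widest, Apol7b, had a range of 1.35 and lay lowest in SE mouse 1, at 4.19. The r of the list's genes with Apol11b ran from -0.57 for Apol9a to 0.88 for Apold1. Of 11 measured genes for NPY relatives, receptors and processing enzymes, Dpp4, a peptidase that trims NPY, had the widest range, 1.38, and was lowest in EE mouse 3. The 13 measured dynein genes had ranges of up to 0.53, against 3.31 for Dnah8. Of 6 measured genes for the repair of sugar-modified proteins and for reactive sugars, Glo1, described above, had the widest range, 1.63. Hagh, the partner of glyoxalase 1, was lower in EE (log2 fold change -0.46, standard error 0.13, limma unadjusted p = 0.0103).

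Markers of blood cell types also differed from mouse to mouse. For each of 9 marker lists, the median deviation from the mean of the 6 mice was taken per mouse, and the highest and lowest mouse differed by 0.15 to 1.13 log2 units. A median over a list evens out its single genes, so these spans cannot be set against the range of a gene chosen for its range. In bulk blood, fewer cells of a type and less RNA per cell cannot be told apart.
The platelet list had the widest spread, from -0.63 in SE mouse 3 to 0.50 in EE mouse 3. In SE mouse 1, the mouse high for Npy, the platelet list lay at 0.24 and the red cell list at 0.55, the highest of the 6. Over the 6 mice the r with Npy was 0.37 for platelets (0.64 without EE mouse 3) and 0.73 for red cells (0.73 without it). For the B cell list it was -0.35, and -0.92 without EE mouse 3. The neutrophil list, at -0.45 in SE mouse 3 and 0.45 in EE mouse 1, was higher in each EE mouse than in any SE mouse, as was Rhoj. The red cell list parted the groups the other way, at -0.42 to -0.04 in EE mice and 0.12 to 0.55 in SE mice. The r of the neutrophil list was 0.78 with Pcp4l1 and 0.67 with Rhoj (0.76 and 0.63 without EE mouse 3). That of the platelet list was 0.71 and 0.60 (0.74 and 0.42 without it). For the T cell list the r was 0.35 with Pcp4l1 and 0.19 with Rhoj, but 0.79 and 0.87 without EE mouse 3. The B cell list ran the other way, at -0.55 and -0.63 (-0.64 and -0.46 without it).
Several lists moved with Dnah8, whose lowest mouse, EE mouse 3, was the array least like the others. In that mouse 7 of 7 monocyte markers were highest and 9 of 9 B cell markers lowest, and the r with Dnah8 was -0.84 for the monocyte list, -0.86 for the endothelial list and 0.55 for the B cell list. Without EE mouse 3 it was -0.61, -0.85 and -0.21, so that the last changed sign. The endothelial list then lay only between -0.09 and 0.03, whereas EE mouse 3 was at 0.40. For the list of neurons and chromaffin cells the r with Dnah8 was -0.69, and 0.03 without EE mouse 3. For the remaining genes the strongest r over the 6 mice was 0.62 (Gm1966, platelets), -0.68 (Apol11b, T cells) and 0.59 (Fn3krp, red cells). Without EE mouse 3 these were 0.62, -0.49 and 0.60. Other lists were then stronger for Apol11b (neutrophils, -0.76) and Fn3krp (neurons and chromaffin cells, -0.99). In the 5 mice of that last r the list lay only between -0.09 and 0.00. Its span of 0.31 over the 6 mice came from EE mouse 3, at 0.22. Of 10 endothelial markers, 2 had a mean of at least 100 on the linear scale, 6 were highest in EE mouse 3, and the list spanned 0.49, with an r of 0.33 with Rhoj that was -0.64 without EE mouse 3. The part of cell types in the values of the 7 genes was not tested beyond these numbers.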

How the data were processed

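Whole blood RNA of 3 EE and 3 SE mice was measured on 6 Affymetrix arrays. The authors normalized the arrays by RMA (Bioconductor package affy) and deposited log2 values for 41345 probe sets, used here without further scaling. RMA evens out total RNA between samples and compresses small folds. Probe sets were named from the annotation of the Mouse Gene 2.0 ST array, which holds them, although the study's text gives version 1.0. Of the probe sets, 23521 have 1 gene symbol, 1820 several and 16004 none. Versions of the authors' tools and a genome build are not given in the sources used here, and gene positions are from GRCm38.p6.

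EE was compared with SE in limma (version 3.58.1, under R 4.3.3) by moderated linear models on every probe set, without covariates, and p-values were adjusted by Benjamini-Hochberg over the table. The study's filter (an Entrez ID and a mean of at least 100) keeps all 7 genes and was an alternative, since a mean filter can keep a gene through its high mice. Exact permutation tests used all assignments of 3 mice. The code was tested on simulated data. The number of arrays limits precision, and p-values set the group difference against the spread between these mice. In limma that spread is moderated over all probe sets. If the mice of a group shared an enclosure, its effect cannot be told apart from that of housing.

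Members and lists were chosen with earlier results of these data known. Genes named besides them are the 3 nearest annotated on each side, the 3 most alike, those next to the range limit, and relatives that passed p, had a range over 1 log2 unit or, failing both, had the highest mean. Other genes were singled out after their values were seen. A relative or marker with several probe sets was read from the one of highest mean. The list of relatives for Rhoj enters the totals only and is not reported here gene by gene. The mouse numbers of the labels are not stated to pair mice.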

Additional observations from a re-analysis of the deposited data

How the results depend on the processing

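Of 7 genes, 2 passed the p and fold thresholds with the study's filter, a filter at the median probe set, median centring, quantile normalization, the trend and robust settings, array weights and the mouse number as a replicate block. With 1 mouse left out, 0 to 2 passed, and genes without overlap between EE and SE numbered 1 to 2, against 1. Fewer mice make a lack of overlap easier to reach. Its share over all probe sets was not computed with a mouse left out, so these counts say nothing particular about the 7 genes. All 7 kept a range over 2 log2 units under median centring and quantile normalization, and 6 to 7 did with a mouse left out. The log2 fold change of Gm1966, 0.02, was -0.30 with array weights and -1.18 to 1.07 with a mouse left out, and its sign carries no information. The other 6 had the same sign under all these settings, but their size moved with a mouse left out: from 1.62 to 3.33 for Pcp4l1, 0.91 to 2.06 for Rhoj, -2.31 to -0.80 for Dnah8, -1.89 to -0.13 for Apol11b, -1.71 to -0.34 for Fn3krp and -1.84 to -0.02 for Npy, where the last value gives no direction.
Over all probe sets, 71 passed, and 12 of 6154 with the study's filter, 35 above the median probe set, 97 with array weights and 94 to 150 with a mouse left out. At an adjusted p of 0.05 limma called 0 in each, with 1548 at an unadjusted p under 0.05 in the main analysis. With the replicate block, 76 passed, and the p of Apol11b was 0.027 by limma at an unchanged log2 fold change of -0.86, under the fold threshold. Deviations of same-numbered mice from their group means correlated at 0.03, -0.04 and -0.03, and 2 of 6 mice were closest to their own number.
Low arrays cannot be called undetected from these values, and 3 mice per group cannot tell a two-level gene from a graded one with certainty.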
